A study of Homo sapiens with 12 samples.

Results

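The 10 noncoding RNAs examined, SNHG1, SNHG5, SNHG6, SNHG7, SNHG8, SNHG12, SNHG15, SNHG16, GAS5 and ZFAS1, are spliced transcripts whose introns carry small nucleolar RNAs (snoRNAs). They were taken from a list of names, which was drawn up with earlier results of these data known but uses no measured value as a criterion, and 9 of the 10 had a value among the 22784 gene symbols measured. SNHG6 was not analysed here. The cells were SK-UT-1, an established line grown from a uterine leiomyosarcoma, a smooth muscle tumour of the uterus. They received 5 µM JQ1, 5 µM I-BET 762 or DMSO alone (labelled VEH) for 48 h, and total RNA was sequenced from strand-specific libraries. JQ1 and I-BET 762 are small molecules that bind the bromodomains of the BET proteins, which read acetylated histones. Values were analysed for 3 DMSO libraries (replicates 13 to 15), 4 JQ1 libraries (17 to 20) and 3 I-BET 762 libraries (21 to 23), all from this single line without a genetic change, while DMSO replicate 16 and I-BET 762 replicate 24 were not analysed here. The labels do not say that the libraries came from separate cultures, so the p-values measure the spread between these libraries, which may be technical.

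In a noncoding snoRNA host gene the exons are joined into an RNA that often encodes no stable protein, while each snoRNA is cut from an intron after splicing. Box C/D snoRNAs guide ribose methylation and box H/ACA snoRNAs guide pseudouridylation of ribosomal and spliceosomal RNA. Many hosts begin with a terminal oligopyrimidine (TOP) tract, a run of C and T at the very start that ribosomal protein mRNAs share, and the spliced RNA of several hosts, GAS5 being the classical case, is translated briefly and removed by nonsense-mediated decay.

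The cargo differed between the hosts. RefSeq places 37 snoRNA genes inside the 10 hosts, of which 28 are box C/D, 8 are box H/ACA and 1, in SNHG1, has no snoRNA name. GAS5 holds 11 and SNHG1 holds 9, whereas SNHG6, SNHG8 and SNHG15 hold 1 each. SNHG1, SNHG5, SNHG6, SNHG16 and ZFAS1 carry named snoRNAs of the box C/D class alone, SNHG7, SNHG8 and SNHG15 carry box H/ACA snoRNAs alone, and SNHG12 and GAS5 carry both. The following snoRNAs, from the transcripts of Gencode release 44 on GRCh38 (hg38), show the cargo of the hosts that the results turn on. They are written 5′ to 3′ on the strand of the host, with box C (TGATGA) and box D (CTGA) in capitals for box C/D snoRNAs and the ACA box in capitals for H/ACA snoRNAs. SNORD27 and SNORD25 lie in SNHG1 (chr11:62855012-62855083 and chr11:62855564-62855632, minus strand), SNORD99 and SNORA61 in SNHG12 (chr1:28578749-28578822 and chr1:28579764-28579893, minus strand), SNORD12C in ZFAS1 (chr20:49278940-49279028, plus strand) and SNORA24 in SNHG8 (chr4:118279190-118279320, plus strand). SNORD99 holds no exact TGATGA, so only its box D is marked.
SNORD27: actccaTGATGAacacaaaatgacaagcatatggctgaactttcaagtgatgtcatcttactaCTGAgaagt
SNORD25: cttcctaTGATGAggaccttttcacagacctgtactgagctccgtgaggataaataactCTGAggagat
SNORD99: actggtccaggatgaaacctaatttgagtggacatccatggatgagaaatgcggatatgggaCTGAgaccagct
SNORA61: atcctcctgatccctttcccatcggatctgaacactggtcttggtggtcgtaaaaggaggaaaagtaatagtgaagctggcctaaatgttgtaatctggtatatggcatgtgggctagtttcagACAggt
SNORD12C: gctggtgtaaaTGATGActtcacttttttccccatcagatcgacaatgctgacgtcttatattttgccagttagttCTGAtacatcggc
SNORA24: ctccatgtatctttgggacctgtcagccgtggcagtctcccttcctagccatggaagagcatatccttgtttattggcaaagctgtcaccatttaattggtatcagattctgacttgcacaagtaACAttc

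The promoters also differed. RefSeq promoter windows (GRCh38.p14, 250 bases before to 50 bases after the start) were matched for 8 of the 10 hosts, all but SNHG6 and SNHG15. The letters TATAA, read on the strand of the gene and beginning 40 to 20 bases before the start, occurred in SNHG5, SNHG7, SNHG8, SNHG12 and ZFAS1, which is 5 of 8, against 3.91% of 35116 promoters. A TOP tract, a C followed by at least 4 pyrimidines and beginning within 10 bases of the annotated start, occurred in 6 of 8 (SNHG5, SNHG7, SNHG8, SNHG12, SNHG16 and ZFAS1) against 31.4% of all promoters. The E-box letters CACGTG, which read the same on both strands and are bound by MYC among other factors, occurred in SNHG7 alone, against 7.26% of all promoters. The GAS5 window (chr1:173868996-173869295, minus strand) lies wholly before the outermost Gencode start of the gene at 173868882. The absence of these letters in GAS5 is therefore uncertain. These matches describe letters and not bound sites. The promoters of 3 hosts that were higher with JQ1 (SNHG1, SNHG7 and SNHG12) and of 2 that were not (SNHG8 and SNHG16) are printed below in the direction of transcription, with the TATAA letters, the E-box and the TOP tract in capitals, at chr11:62855836-62856135, chr9:136728135-136728434 and chr1:28581824-28582123 on the minus strand and chr4:118278512-118278811 and chr17:76557514-76557813 on the plus strand.
SNHG1: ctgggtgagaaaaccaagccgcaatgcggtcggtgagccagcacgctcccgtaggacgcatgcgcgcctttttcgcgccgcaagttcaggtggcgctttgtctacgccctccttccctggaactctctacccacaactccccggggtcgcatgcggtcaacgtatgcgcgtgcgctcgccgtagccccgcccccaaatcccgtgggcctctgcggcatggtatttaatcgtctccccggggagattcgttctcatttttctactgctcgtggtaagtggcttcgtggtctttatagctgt
SNHG7: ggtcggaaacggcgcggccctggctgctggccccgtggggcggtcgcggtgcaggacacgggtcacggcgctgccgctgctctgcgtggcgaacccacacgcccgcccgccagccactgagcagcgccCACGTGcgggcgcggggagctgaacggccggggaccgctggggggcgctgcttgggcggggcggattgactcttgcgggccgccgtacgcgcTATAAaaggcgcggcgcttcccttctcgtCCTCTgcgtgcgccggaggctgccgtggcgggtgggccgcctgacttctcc
SNHG12: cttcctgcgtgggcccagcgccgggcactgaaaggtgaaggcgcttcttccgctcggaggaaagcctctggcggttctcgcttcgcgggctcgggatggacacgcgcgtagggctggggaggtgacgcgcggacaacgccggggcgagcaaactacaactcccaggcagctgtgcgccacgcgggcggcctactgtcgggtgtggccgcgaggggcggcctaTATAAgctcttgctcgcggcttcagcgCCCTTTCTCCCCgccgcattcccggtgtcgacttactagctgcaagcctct
SNHG8: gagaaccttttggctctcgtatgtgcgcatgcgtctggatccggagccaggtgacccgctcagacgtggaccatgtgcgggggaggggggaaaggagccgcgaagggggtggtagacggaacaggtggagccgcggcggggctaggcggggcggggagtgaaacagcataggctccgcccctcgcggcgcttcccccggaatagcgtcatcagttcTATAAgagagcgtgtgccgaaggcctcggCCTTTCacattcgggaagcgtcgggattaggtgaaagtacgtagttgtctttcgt
SNHG16: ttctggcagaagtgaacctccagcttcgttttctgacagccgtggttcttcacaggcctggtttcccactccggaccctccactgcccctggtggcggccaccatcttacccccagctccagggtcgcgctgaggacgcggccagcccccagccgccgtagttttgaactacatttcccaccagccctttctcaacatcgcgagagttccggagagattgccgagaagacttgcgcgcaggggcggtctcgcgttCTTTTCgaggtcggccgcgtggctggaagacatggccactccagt

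Reads on genes ranged from 35564586 to 39658989 per library, and every host was measured far above the limit of 3 reads that a count of 0 allows, which was 2.73 to 3.30 normalized counts and covers counting error only. Values below are normalized counts, the counts of reads per gene divided by the scaling factor that the authors' normalization gave each library. Replicates of a group differed by more than counting error in each pair, at 2.73 to 20.8 by chi-square per gene, and the 3 pairs that held JQ1 replicate 18 lay at 19.5 to 20.8. Fold changes came from a linear model of the log2 values with moderated errors (limma), with Benjamini-Hochberg adjustment over the 14839 genes with a normalized count of at least 10 in at least 3 libraries, which all 9 hosts passed. A gene was taken as higher or lower at an adjusted p under 0.05 and as a differentially expressed gene (DEG) where its fold change also exceeded 1.5.

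Per kilobase of annotated exon, the 3 most abundant hosts in DMSO were SNHG1 (1803 ± 69.8 normalized counts per kilobase, SD, n = 3), GAS5 (1552 ± 25.3) and SNHG16 (1259 ± 77.4). SNHG15 followed at 406 (394 to 412), SNHG12 at 236 ± 2.35, SNHG7 at 210 ± 3.05, ZFAS1 at 141 ± 11.5, SNHG8 at 86.5 ± 4.79 and SNHG5 at 65.1 ± 4.12. The DMSO libraries of neighbours in this order did not overlap. With JQ1 the order per kilobase was less distinct, because SNHG15 (368 to 459) overlapped both SNHG12 (379 to 457) and SNHG7 (285 to 373), and SNHG5 (74.4 to 83.0) overlapped SNHG8 (74.4 to 91.5). Lengths were the union of all annotated exons, which counts retained introns and rare isoforms, and is 12604 bases for SNHG5 against 3976 for SNHG1, so a level per kilobase depends on the annotation.

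Among the hosts whose named snoRNAs are all of the box C/D class is SNHG1, the former U22 host gene. SNHG1 stood at 6899, 7453 and 7155 normalized counts in the DMSO libraries, at 11184, 14020, 11612 and 13242 in the JQ1 libraries and at 9275, 9195 and 9365 in the I-BET 762 libraries. The 3 groups did not overlap, with JQ1 at the top and I-BET 762 in between. SNHG1 was a DEG with JQ1, 1.74-fold higher (log2 fold change 0.80, SE 0.07, limma adjusted p = 2.22e-08). With I-BET 762 it rose 1.29-fold (log2 fold change 0.37, SE 0.07, limma adjusted p = 0.000283), which is under the fold threshold.

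ZFAS1, an RNA read away from the start of ZNFX1 and host of the SNORD12 family, stood at 1283, 1140 and 1101 normalized counts in DMSO, at 1479, 1689, 1407 and 1517 with JQ1 and at 1385, 1420 and 1404 with I-BET 762. Each treated library lay above each DMSO library, while the JQ1 and I-BET 762 libraries overlapped. ZFAS1 rose 1.30-fold with JQ1 (log2 fold change 0.37, SE 0.07, limma adjusted p = 0.000122) and 1.20-fold with I-BET 762 (log2 fold change 0.26, SE 0.07, limma adjusted p = 0.00561). SNHG5, the U50 host gene, stood at 874, 819 and 770 normalized counts in DMSO, at 1036, 938, 996 and 1047 with JQ1 and at 854, 797 and 906 with I-BET 762. The JQ1 libraries lay above all the others and the I-BET 762 libraries were spread through the DMSO range and just past it. SNHG5 rose 1.22-fold with JQ1 (log2 fold change 0.29, SE 0.07, limma adjusted p = 0.00106), and its log2 fold change with I-BET 762 was 0.05 (SE 0.07, 95% confidence interval -0.10 to 0.21, adjusted p = 0.533). On the same strand SNHG5 shares 943 exon bases with an unnamed gene model and 715 with the pseudogene PKMP3, so its count is uncertain.

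GAS5, named for its rise on growth arrest, holds the most snoRNAs of the 10 hosts. It stood at 7571, 7796 and 7591 normalized counts in DMSO, at 7663, 8882, 7722 and 8218 with JQ1 and at 7219, 7247 and 7085 with I-BET 762. The DMSO and JQ1 libraries overlapped, and the I-BET 762 libraries lay below all 7 others. The log2 fold change of GAS5 was 0.08 with JQ1 (SE 0.05, limma adjusted p = 0.157) and -0.09 with I-BET 762 (SE 0.05, adjusted p = 0.161), with 95% confidence intervals of -0.03 to 0.19 and -0.21 to 0.03. SNHG16, host of the SNORD1 family, stood at 6836, 7729 and 7252 normalized counts in DMSO, at 7015, 7799, 7092 and 7174 with JQ1 and at 7276, 7553 and 7517 with I-BET 762. All 3 groups overlapped, and the 95% confidence interval of the log2 fold change was -0.11 to 0.11 with JQ1 and -0.08 to 0.15 with I-BET 762.

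Among the hosts that carry box H/ACA snoRNAs alone, SNHG7 was the one that rose. SNHG7 stood at 1035, 1038 and 1011 normalized counts in DMSO, at 1827, 1396, 1737 and 1500 with JQ1 and at 1319, 1333 and 1252 with I-BET 762. Every JQ1 library lay above every I-BET 762 library and every I-BET 762 library above every DMSO library. SNHG7 was a DEG with JQ1, 1.56-fold higher (log2 fold change 0.64, SE 0.08, limma adjusted p = 1.84e-06), and it rose 1.27-fold with I-BET 762 (log2 fold change 0.34, SE 0.08, adjusted p = 0.00231). Without JQ1 replicate 17 its log2 fold change with JQ1 was 0.58, just below the fold threshold of 0.585.

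SNHG8, host of SNORA24, stood at 538, 600 and 578 normalized counts in DMSO, at 557, 588, 605 and 492 with JQ1 and at 627, 543 and 544 with I-BET 762. SNHG15, host of SNORA9, stood at 1626, 1555 and 1621 normalized counts in DMSO, at 1630, 1812, 1593 and 1452 with JQ1 and at 1589, 1597 and 1679 with I-BET 762. For both genes the groups overlapped, and the highest and the lowest SNHG15 library were both JQ1 libraries. With JQ1 the 95% confidence interval of the log2 fold change was -0.21 to 0.15 for SNHG8 and -0.12 to 0.15 for SNHG15. With I-BET 762 it was -0.19 to 0.19 and -0.13 to 0.17.

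SNHG12 carries SNORD99 beside 3 box H/ACA snoRNAs. It stood at 1006, 998 and 1018 normalized counts in DMSO, at 1949, 1702, 1711 and 1618 with JQ1 and at 1425, 1483 and 1373 with I-BET 762. The groups did not overlap, and the DMSO libraries lay within 998 to 1018. SNHG12 was a DEG with JQ1, 1.73-fold higher (log2 fold change 0.79, SE 0.06, limma adjusted p = 1.19e-08). Its rise with I-BET 762 was the largest among the 9 hosts for that inhibitor, 1.42-fold (log2 fold change 0.50, SE 0.07, adjusted p = 8.25e-06).

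**Figure D1:**
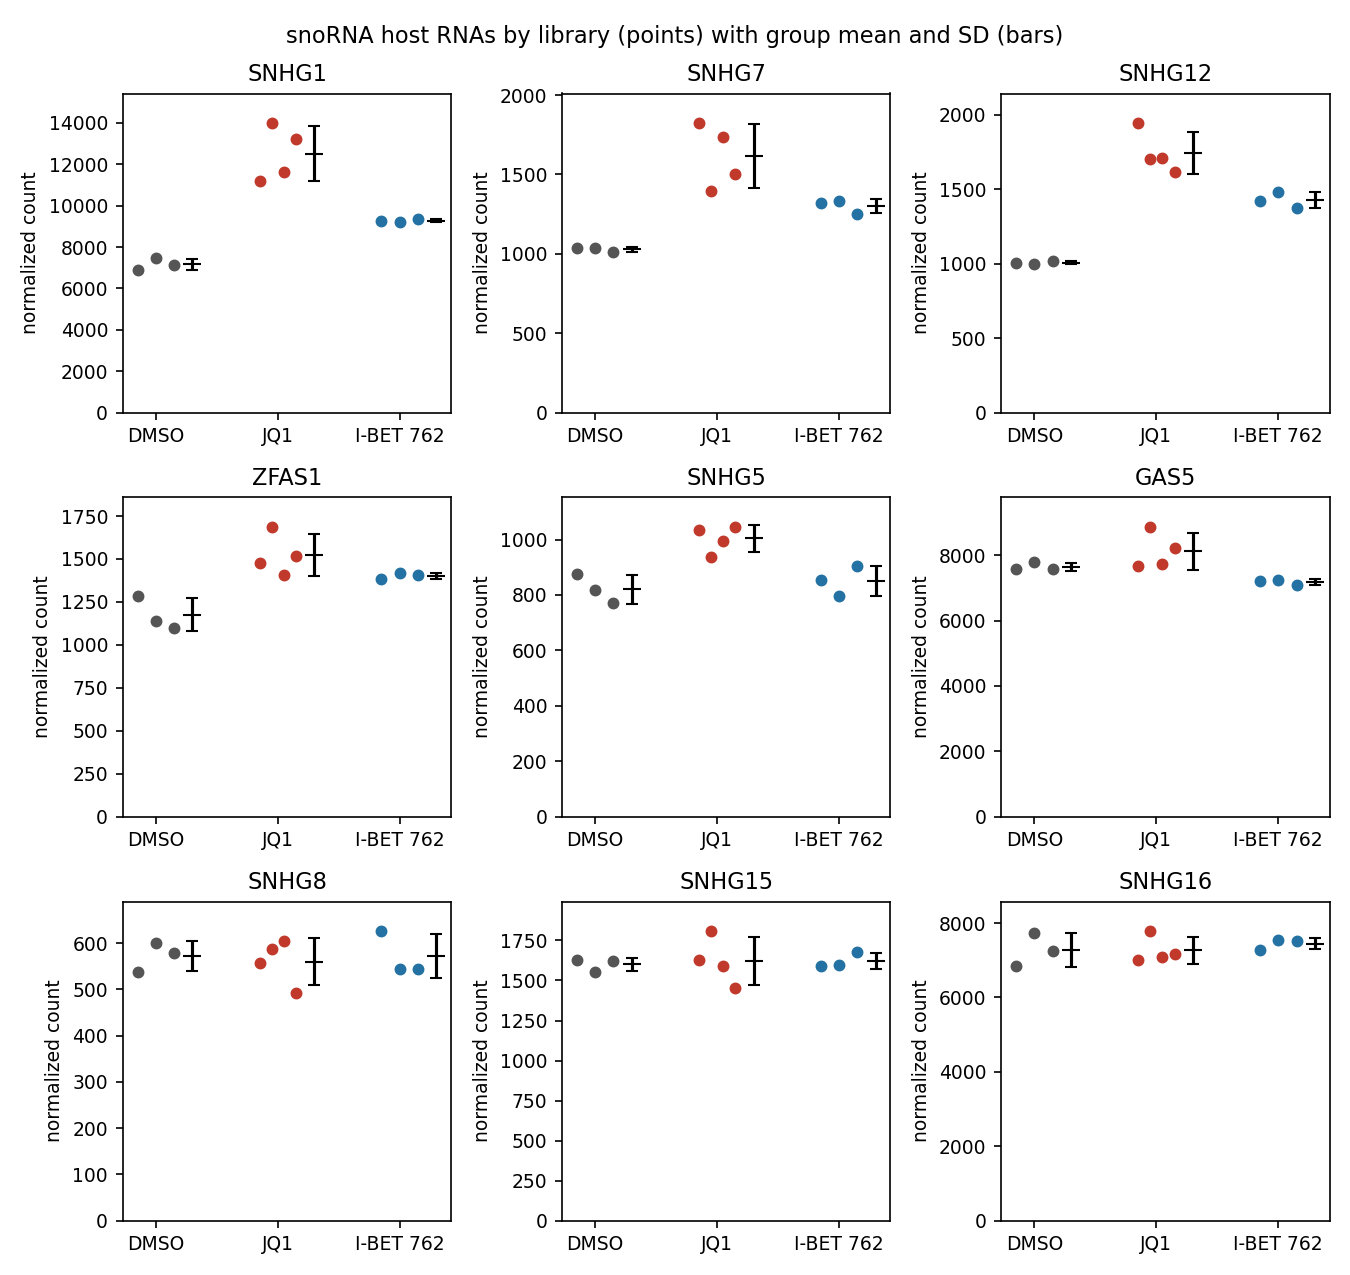
Normalized counts (vertical axes, from 0) of the 9 measured snoRNA host RNAs in each library, with 3 DMSO, 4 JQ1 and 3 I-BET 762 points per panel and the group mean with its SD as a bar beside them. SNHG1, SNHG7 and SNHG12 form 3 separate steps, while SNHG8, SNHG15 and SNHG16 overlap in all groups.

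With JQ1, then, 5 of the 9 hosts rose (SNHG1, SNHG12, SNHG7, ZFAS1 and SNHG5) and 0 fell at the adjusted p. Of all genes tested 36.0% were higher, 35.6% lower and 71.7% one or the other, so a rise of 5 in 9 is read against a background in which most genes moved. As DEGs, 3 of the 9 hosts were higher (SNHG1, SNHG12 and SNHG7) and 0 lower, where 13.3% of all genes were DEGs on the higher side, 22.8% on the lower side and 36.1% in all. The median log2 fold change was 0.29 over the hosts and 0.01 over all genes. Every JQ1 library lay above every DMSO library for 5 hosts and below for 0, where 34.1% and 34.3% of all genes did so.

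With I-BET 762, 4 of the 9 hosts rose (SNHG12, SNHG1, SNHG7 and ZFAS1) and 0 fell, where 29.9% of all genes were higher, 31.3% lower and 61.1% one or the other. In limma 0 hosts were DEGs, 4 had an unadjusted p under 0.05, and limma-voom on the recovered reads also made 0 DEGs, where in limma 8.96% of all genes were DEGs on the higher side, 17.9% on the lower side and 26.9% in all. The median log2 fold change was 0.05 over the hosts and 0.00 over all genes. For 4 hosts every I-BET 762 library lay above every DMSO library (34.8% of all genes), and for GAS5 every one lay below (36.2% of all genes).

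The inhibitors were given at the same dose and for the same time, and JQ1 was also compared directly with I-BET 762, for each of the 9 hosts. Whether this dose inhibits the BET proteins equally was not tested, so the compound and its strength at this dose cannot be told apart. SNHG1 was 1.34-fold higher with JQ1 (log2 difference 0.43, 95% confidence interval 0.28 to 0.57, limma adjusted p = 0.000263). SNHG7 was higher by 0.30 on the log2 scale (0.14 to 0.47, adjusted p = 0.00943), SNHG12 by 0.29 (0.16 to 0.42, adjusted p = 0.00315), SNHG5 by 0.24 (0.09 to 0.38, adjusted p = 0.0159) and GAS5 by 0.17 (0.07 to 0.28, adjusted p = 0.0193). These 5 hosts compare with 13.3% of all genes higher with JQ1, 14.0% lower and 27.3% one or the other, and their JQ1 libraries all lay above the I-BET 762 libraries, as for 17.5% of all genes (16.3% all lay below). For the other 4 the 95% confidence interval of the log2 difference held 0, running from -0.03 to 0.26 for ZFAS1, -0.21 to 0.15 for SNHG8, -0.14 to 0.13 for SNHG15 and -0.15 to 0.07 for SNHG16. No host differed by more than 1.5-fold, with 0 DEGs in limma and in limma-voom and 5 hosts at an unadjusted p under 0.05, where in limma 1.73% of all genes were DEGs on the higher side, 3.59% on the lower side and 5.31% in all. SNHG5, SNHG7 and GAS5 each passed by a small margin, and leaving out any 1 of the 3 I-BET 762 libraries left 3 hosts past the adjusted p, without SNHG5 and GAS5 where replicate 21 or 22 was left out and without SNHG7 and GAS5 where replicate 23 was.

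**Figure D2:**
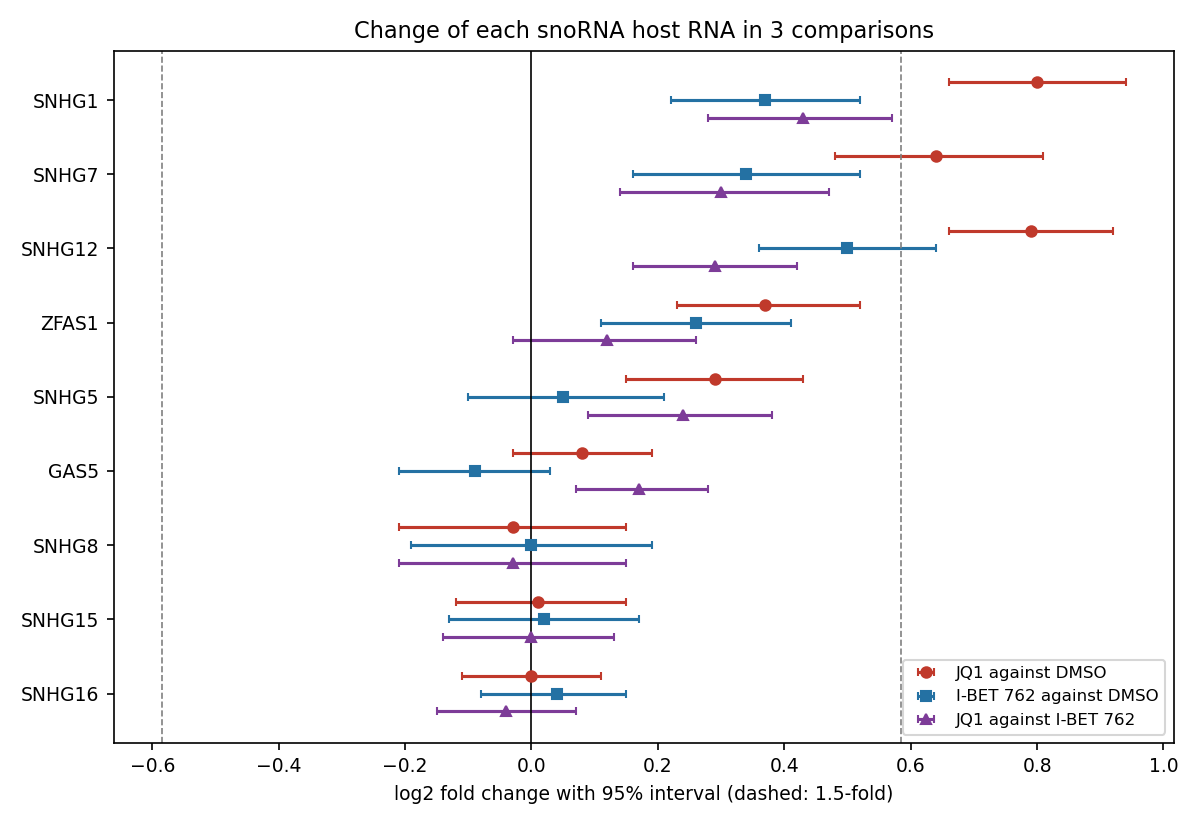
Log2 fold change (horizontal axis) of each of the 9 host RNAs with its 95% confidence interval, for JQ1 against DMSO (circles), I-BET 762 against DMSO (squares) and JQ1 against I-BET 762 (triangles), with dashed lines at a 1.5-fold change. With JQ1, SNHG1, SNHG12 and SNHG7 lie beyond the dashed line at 0.80, 0.79 and 0.64, and with I-BET 762 no host does.

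Summed, the 9 hosts took 0.0794% to 0.0816% of all normalized counts in the DMSO libraries, 0.0869% to 0.0928% in the JQ1 libraries and 0.0820% to 0.0837% in the I-BET 762 libraries, 3 ranges that did not overlap. Most of each sum came from SNHG1, GAS5 and SNHG16. Of these only SNHG1 rose, from a mean of 7169 in DMSO to 12515 with JQ1 and 9278 with I-BET 762. GAS5 stood at 7653, 8121 and 7184 and SNHG16 at 7272, 7270 and 7449. The summed share therefore follows SNHG1 and does not show a rise of the hosts as a set. Within the JQ1 group the hosts did not move as 1 block. SNHG1 was 0.17 and 0.09 above its JQ1 mean (log2) in replicates 18 and 20 and 0.16 and 0.10 below it in replicates 17 and 19. SNHG7 did the reverse, at 0.19 and 0.11 above its mean in replicates 17 and 19 and 0.20 and 0.10 below in replicates 18 and 20. GAS5, ZFAS1, SNHG15 and SNHG16 were each highest among JQ1 libraries in replicate 18, and SNHG12 in replicate 17. With these libraries the rises differ in size from one to the next, but each of the 5 hosts that rose with JQ1 still did without any 1 library.

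**Figure D3:**
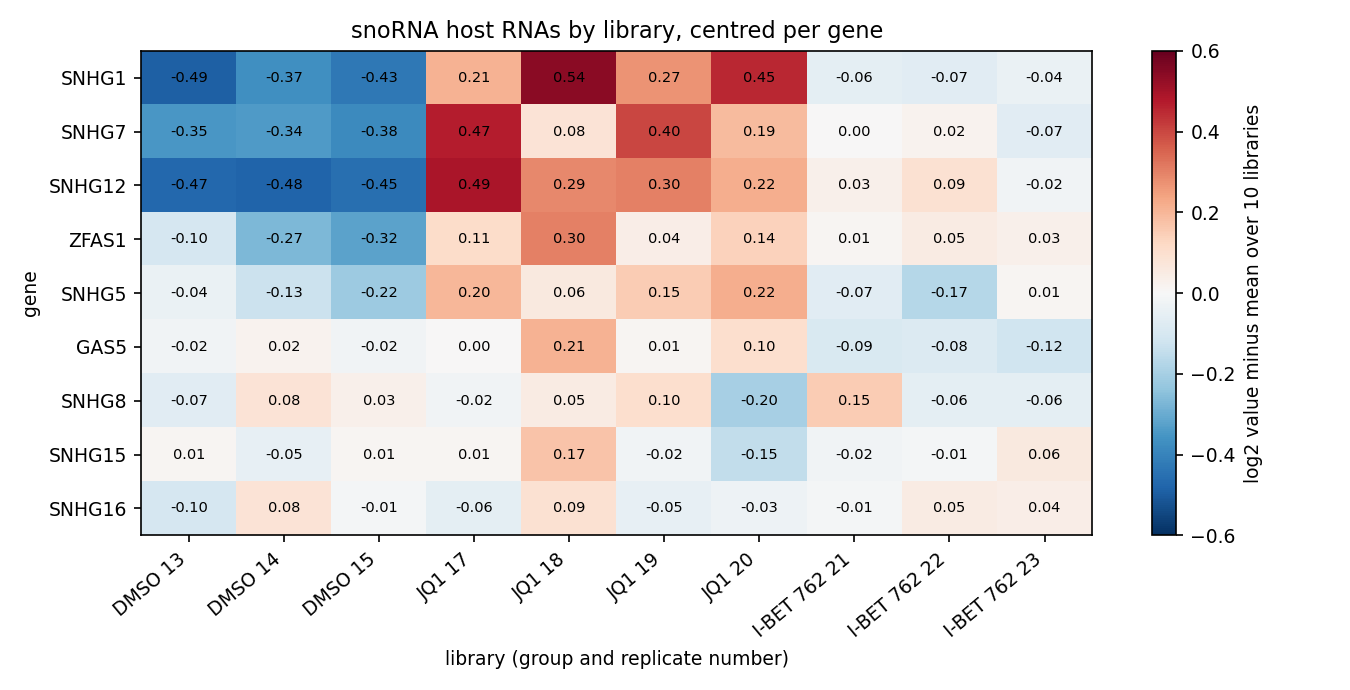
Log2 value of each host RNA (rows) in each library (columns, by group and replicate number), minus the mean of that gene over the 10 libraries, on a colour scale from -0.6 to 0.6. SNHG1, SNHG7 and SNHG12 are lowest in the 3 DMSO libraries, and within JQ1 the peaks of SNHG1 (0.54 in replicate 18) and SNHG7 (0.47 in replicate 17) fall in different libraries.

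The scaling between libraries set the direction of the hosts near 0. Under the authors' scaling the JQ1 libraries held larger normalized totals than the DMSO libraries. Scaled to equal totals, the median log2 fold change of all genes was -0.18 with JQ1 in place of 0.01, and -0.10 with I-BET 762 in place of 0.00. Higher genes then made up 22.5% of the DEGs with JQ1 (36.9% under the authors' scaling) and 24.5% with I-BET 762 (33.3%). Then SNHG1 and SNHG12 remained DEGs with JQ1 at 0.61 and 0.60 (log2), SNHG7 stood at 0.46 and ZFAS1 at 0.19, all 4 past the adjusted p, while SNHG5 stood at 0.11 (limma adjusted p = 0.234). The others turned lower and past the threshold, SNHG8 at -0.22 (adjusted p = 0.0246), SNHG16 at -0.19 (0.000715), SNHG15 at -0.17 (0.0176) and GAS5 at -0.10 (0.0313). These 4 values stood around the all-gene median of -0.18, as their values under the authors' scaling stood around 0.01. With I-BET 762 on equal totals SNHG12, SNHG1 and SNHG7 still rose (0.40, 0.28 and 0.24, adjusted p = 0.000183, 0.00116 and 0.0398), though SNHG7 missed the threshold in limma-voom on library totals (adjusted p = 0.0501), ZFAS1 was at 0.16 (adjusted p = 0.0581) and GAS5 fell (-0.19, adjusted p = 0.00143). Between the inhibitors SNHG1 and SNHG12 stayed higher with JQ1 (0.34 and 0.20), SNHG16 was lower (-0.12), and SNHG5, SNHG7 and GAS5 no longer passed (adjusted p = 0.164, 0.0841 and 0.114).

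**Figure D4:**
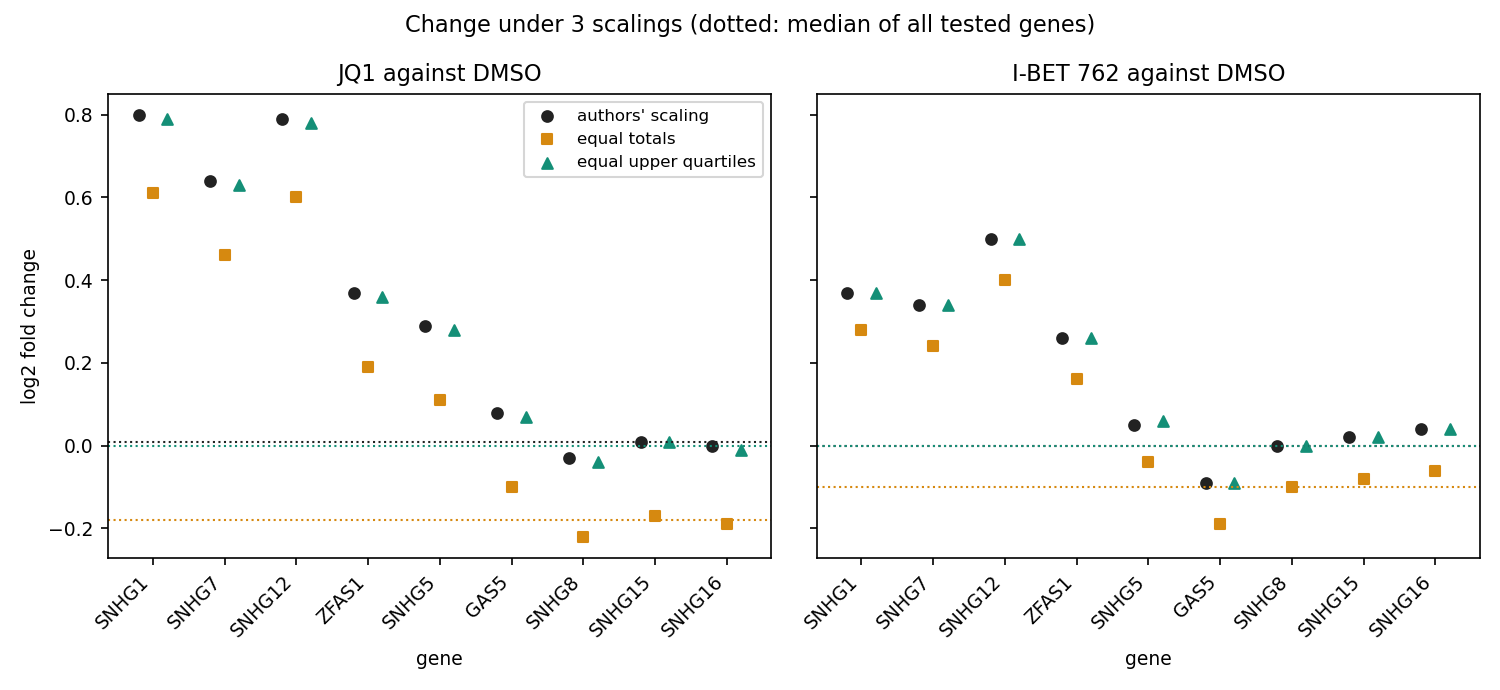
Log2 fold change (vertical axis) of each host RNA against DMSO under the authors' scaling (circles), equal totals (squares) and equal upper quartiles (triangles), for JQ1 (left) and I-BET 762 (right), with dotted lines at the median of all tested genes under each. Equal totals move each host down together with the median of all genes, by about the same step, and leave SNHG1, SNHG7 and SNHG12 as the 3 highest in both panels.

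The snoRNAs themselves were mostly outside this measurement. Of the 37 hosted snoRNA genes, 4 had a value. SNORD99, inside SNHG12, stood at 36.8, 35.1 and 25.5 normalized counts in DMSO, at 48.3, 52.2, 48.0 and 58.8 with JQ1 and at 54.1, 47.1 and 49.2 with I-BET 762. Each treated library lay above each DMSO library, and SNORD99 was a DEG with JQ1 (log2 fold change 0.67, SE 0.18, limma adjusted p = 0.00394) and with I-BET 762 (0.63, SE 0.20, adjusted p = 0.0117). SNORD12C, inside ZFAS1, stood at 93.9, 92.5 and 96.5 normalized counts in DMSO, at 83.5, 86.0, 76.0 and 110 with JQ1 and at 88.6, 82.2 and 75.8 with I-BET 762. Its log2 fold changes of -0.10 (SE 0.14) and -0.20 (SE 0.15) did not pass the test, although its host rose with both. SNORD12B lay at 0.984 to 8.72 normalized counts and SNORD1B at 0.969 to 6.89, under the filter. How far reads from the unspliced hosts enter these snoRNA values was not tested. The reverse may also hold, since the annotated exons of SNHG1, SNHG8 and SNHG15 together cover the whole span (3976, 6614 and 3943 bases). Reads of introns and snoRNAs may thus count towards a host, and their part in the host values was not tested.

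Several hosts share their start or their exons with a gene on the opposite strand, and the sources used here do not give the strand setting of the counting, so reads of such pairs may not be told apart. SLC3A2, the heavy chain of the CD98 amino acid transporter, starts 51 bases from SNHG1 and is read away from it. SLC3A2 stood at 5365 ± 199 normalized counts in DMSO, 6738 ± 319 with JQ1 and 5359 ± 170 with I-BET 762. It rose with JQ1 (log2 fold change 0.33, SE 0.05, limma adjusted p = 1.72e-05) and stood at 0.00 (SE 0.05, adjusted p = 0.985) with I-BET 762, with which SNHG1 rose. ZNFX1, an antiviral RNA helicase whose start lies 248 bases from that of ZFAS1 and which overlaps it by 249 exon bases, fell with JQ1 and I-BET 762 (log2 fold change -0.49 and -0.52, limma adjusted p = 4.09e-07 and 8.36e-07), in the opposite direction to ZFAS1. ZBTB37 starts 800 bases from the outermost start of GAS5, inside the GAS5 span and on the opposite strand, without shared exon bases. Its log2 fold change was 0.01 with JQ1, and it rose with I-BET 762 (0.27, limma adjusted p = 0.00268).

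Of the genes whose exons overlap a host on the other strand, DIPK1B overlaps SNHG7 by 1482 bases and stood at 920 ± 22.8 normalized counts in DMSO, 44.4 ± 8.93 with JQ1 and 74.3 ± 5.97 with I-BET 762. DIPK1B fell with both (log2 fold change -4.37 and -3.61) while SNHG7 rose. TRNAU1AP, which shares 8 exon bases with SNHG12, fell by 0.47 on the log2 scale with each inhibitor. PRSS12, which overlaps SNHG8 by 2487 bases, was near the limit of detection with a mean of 0.544 to 3.39 normalized counts per group.

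Of 23 other noncoding hosts listed, 13 had a value and 11 were tested. With JQ1 5 rose and 4 fell, beside 36.0% and 35.6% of all genes tested, which are shares of a like size. SNHG3, host of SNORA73 copies, rose from 3439 to 4647 normalized counts (log2 fold change 0.43) and SNHG26 from 165 to 257 (0.63), whereas DANCR fell from 1252 to 665 (log2 fold change -0.91, limma adjusted p = 2.54e-09). With I-BET 762 1 rose, SNHG26 (0.41), and 1 fell, DANCR (-0.53), beside 29.9% and 31.3% of all genes. SNHG3 stood at 3430 ± 4.12 normalized counts with I-BET 762. On equal totals 3 rose and 4 fell with JQ1, and 1 rose and 1 fell with I-BET 762. SNHG3, SNHG26 and DANCR were picked after their values were seen.

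The protein-coding snoRNA hosts, largely genes of ribosomal proteins and translation factors with TOP mRNAs, leaned higher. Of all genes tested, 36.0% were higher, 35.6% lower and 13.3% DEGs on the higher side with JQ1. For I-BET 762 these shares were 29.9%, 31.3% and 8.96%. Of the 46 hosts tested, 38 rose and 2 fell with JQ1 (15 DEGs, all higher) at a list median of 0.43 on the log2 scale. Under I-BET 762, 29 of them rose and 1 fell (median 0.28, 1 DEG). On equal totals these counts were 28 higher and 5 lower with JQ1 and 21 higher and 4 lower with I-BET 762. EIF4A1, a translation initiation helicase, was the DEG shared by both inhibitors and went from 426 ± 38.4 to 978 ± 52.8 and 741 ± 68.8 normalized counts (log2 fold change 1.20 and 0.80, limma adjusted p = 1.58e-09 and 8.23e-07). It overlaps the read-through gene SENP3-EIF4A1 on the same strand, so its count may be split between the pair and is uncertain. NOP56, which hosts snoRNAs and is itself a core protein of the box C/D particle, went from 8703 ± 547 to 16263 ± 1083 with JQ1 and 12779 ± 95.1 with I-BET 762.

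Among the 8 core proteins of the snoRNA particles, 5 rose and 0 fell with JQ1, beside 36.0% of all genes higher and 35.6% lower. Under I-BET 762, 4 rose and 0 fell, beside 29.9% and 31.3% of all genes. The box C/D proteins NOP56, NOP58 and SNU13 rose with both (log2 fold change 0.90, 0.48 and 0.42 with JQ1, 0.56, 0.29 and 0.19 with I-BET 762), while the methyltransferase FBL stood at 0.01 with each. On equal totals 4 of the 8 rose and 3 fell with JQ1, and 3 rose and 2 fell with I-BET 762. On the H/ACA side DKC1, the pseudouridine synthase, rose with both (0.43 and 0.29), NHP2 rose with JQ1 (0.22), and NOP10 and GAR1 did not pass (-0.08 and -0.14 with JQ1). Of 11 assembly and intron release factors tested, 8 rose and 2 fell with JQ1 and 5 rose and 2 fell with I-BET 762, beside the same shares of all genes. DBR1, which opens the intron lariat before snoRNA trimming, fell with both (log2 fold change -0.27 and -0.25), and NOLC1, a nucleolar snoRNP chaperone, rose (0.75 and 0.55). On equal totals 4 of these factors rose and 2 fell with each inhibitor.

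Of 19 nonsense-mediated decay factors, 14 rose and 1 fell with JQ1, beside 36.0% of all genes higher and 35.6% lower. Under I-BET 762, 13 rose and 1 fell, beside 29.9% and 31.3% of all genes. The core helicase UPF1 rose with JQ1 (log2 fold change 0.21) and stood at 0.17 with I-BET 762 (limma adjusted p = 0.0728), the kinase SMG1 rose with both (0.54 and 0.44), as did the exon junction helicase EIF4A3 (0.77 and 0.45), and the exon junction protein MAGOHB fell (-0.77 and -0.54). These counts depended on the scaling, with 7 higher and 4 lower for JQ1 and 7 higher and 1 lower for I-BET 762 on equal totals. Of 15 TOP mRNA and growth signalling regulators, 10 rose and 3 fell with JQ1, beside 36.0% of all genes higher and 35.6% lower. Under I-BET 762, 4 rose and 1 fell, beside 29.9% of all genes higher and 31.3% lower. EIF4EBP2, a repressor of cap-dependent translation, was a DEG with both (5730 ± 376, 10274 ± 714 and 8985 ± 256 normalized counts, log2 fold change 0.84 and 0.65). LARP1, which binds TOP mRNAs, fell with JQ1 (-0.31, limma adjusted p = 0.000464) and MTOR rose with both (0.20 and 0.31). On equal totals 2 of these 15 rose and 5 fell with JQ1, and 3 rose and 3 fell with I-BET 762. With JQ1, equal totals moved the median of all genes from 0.01 to -0.18. The rises of MTOR, UPF1 and NHP2 with JQ1 were close to that step in size.

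**Figure D5:**
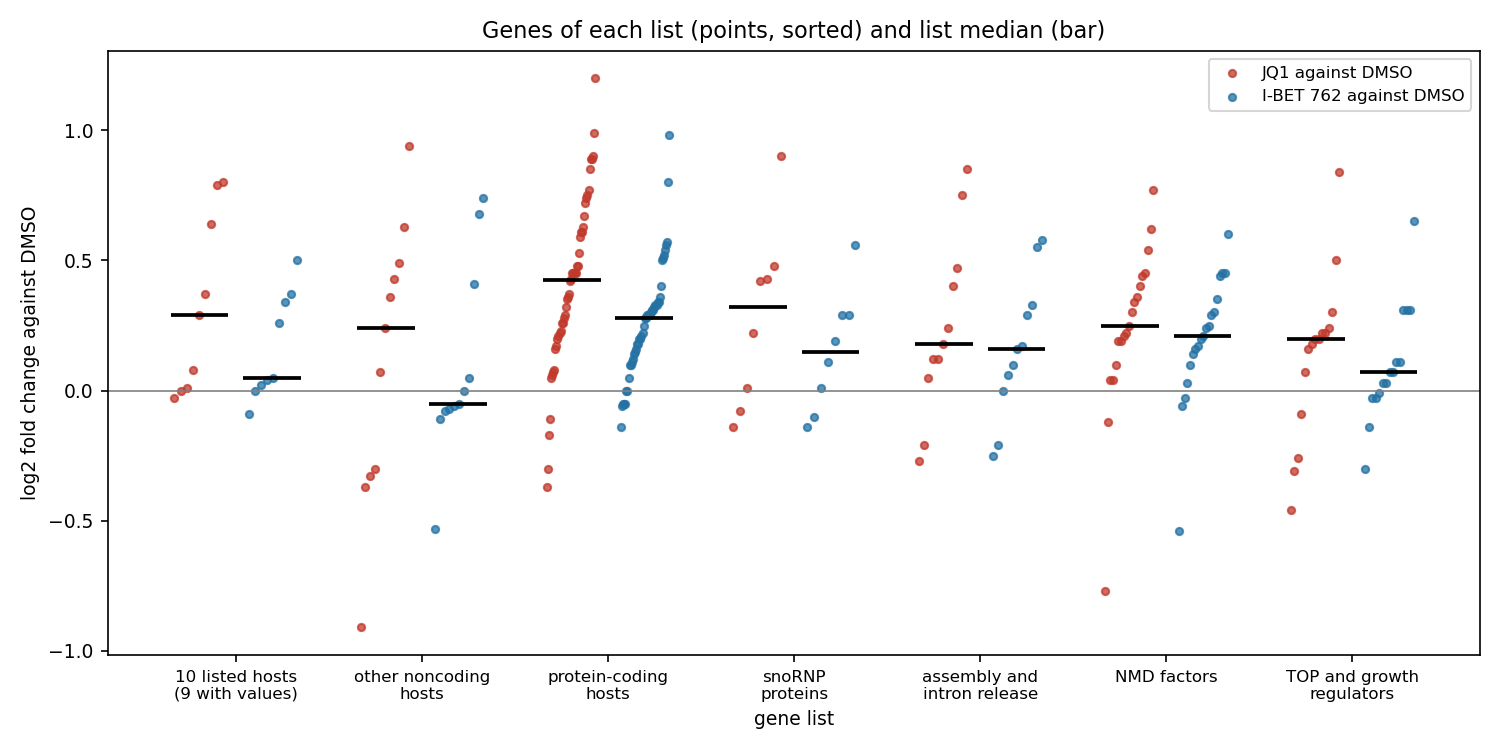
Log2 fold change against DMSO (vertical axis) of every tested gene of each list, sorted within the list, for JQ1 (left in each pair) and I-BET 762 (right), with the list median as a black bar. The medians of the 9 hosts are 0.29 and 0.05, those of the other noncoding hosts 0.24 and -0.05 and those of the protein-coding hosts 0.43 and 0.28.

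Cell type markers moved in the same libraries. The summed smooth muscle markers (7 of 8 with a value, MYH11 not analysed here) ran from 20500 to 21136 normalized counts in DMSO, 10661 to 11269 with JQ1 and 11822 to 12374 with I-BET 762. Of the 7, 6 fell with each inhibitor, where 35.6% of all genes were lower with JQ1 and 31.3% with I-BET 762. The exception was SMTN, which encodes smoothelin and rose slightly with both (log2 fold change 0.19 and 0.20, limma adjusted p = 0.0276 and 0.0344), though on equal totals it passed with neither. DES, the muscle intermediate filament, went from 187 ± 0.570 to 7.79 ± 5.06 and 20.1 ± 1.47 normalized counts, and TAGLN, an actin-binding protein, from 1599 ± 46.0 to 126 ± 14.4 and 157 ± 11.7. Fewer cells that express such genes and less of their RNA per cell cannot be told apart in bulk RNA. The summed epithelial markers (6 of 6 with a value) were lower as well, from 1229 to 1294 in DMSO to 512 to 602 with JQ1 and 499 to 547 with I-BET 762, with all 5 tested lower, KRT19 at 741 ± 1.03, 246 ± 32.2 and 191 ± 9.25 and KRT7 at 16.9 ± 6.57, 1.34 ± 1.37 and 2.64 ± 0.585. Immune markers (4 of 5 with a value) summed to at most 15.7 and endothelial markers (4 of 4) to at most 12 normalized counts in any library, with PTPRC, LYZ and CDH5 at or under the floor of 3 reads in every library. The part of these shifts in the host RNA values was not tested.

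The genes most like the average of the hosts were found by Pearson correlation over the 10 libraries with the mean of the hosts' centred log2 values. They were SLC66A3 (r = 0.996), INTS6 (0.995), TXNRD1 (0.994), PIP4P2 (0.993) and H3-3B (0.993). Each rose in the same order of groups, for example INTS6, a subunit of the Integrator complex, at 2616, 3237 and 3989 normalized counts and TXNRD1, the cytosolic thioredoxin reductase, at 25939, 39089 and 55441 in DMSO, I-BET 762 and JQ1. The libraries share treatment and scaling, so these correlations describe a common group pattern. The mean mostly follows the hosts that moved furthest, and GAS5, SNHG8, SNHG15 and SNHG16 did not rise in this order of groups.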

How the data were processed

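Total RNA from 10 libraries was analysed, grouped by the treatment in the labels. According to the paper and the submitters' processing notes, the authors checked reads with FastQC 0.73, trimmed them with Trimmomatic, aligned them to hg38 with HISAT2 2.2.1, counted genes with featureCounts 2.0.3, applied the DESeq2 normalization and dropped outlier samples. Each value, as the authors deposited it, is log2(normalized count + 1). Undoing this gave whole reads (within 0.02 of a read) for 99.74% to 99.77% of values per library, and hence the scaling factors and depths.

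limma 3.58.1 (R 4.3.3) was fitted to these log2 values with an intensity trend, all 10 libraries in one model and no covariate. The code was tested on simulated data. Alternatives were pseudocounts of 0.5 and 5, other filters, other scalings, no trend, only the groups compared, no fold threshold or 2-fold, limma-voom on the recovered reads and leaving out each library. The hosts and gene lists were chosen with earlier results of these data known. Besides the hosts, genes were named where they were DEGs with both inhibitors and moved most in their list, start opposite a host or correlate best, and others to illustrate a list or overlap after their values were seen. Coordinates are from Gencode release 44 and RefSeq, not the release counted. A few overlapping genes are not reported here.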

Additional observations from a re-analysis of the deposited data

How the results depend on the processing

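No paired analysis was possible because the replicate numbers 13 to 24 are all different. The 3, 0 and 0 hosts that were DEGs with JQ1, with I-BET 762 and between the inhibitors became 5, 4 and 5 with no fold threshold, and the 3 became 0 at a 2-fold change. On equal totals, and with limma-voom on library totals, 8 hosts passed the adjusted p with JQ1 (4 higher, 4 lower) and 3 between the inhibitors (2 higher, 1 lower), where 5 and 5 did under the authors' scaling. With I-BET 762 the 4 higher hosts became 3 higher and 1 lower on equal totals, and 2 higher and 1 lower with limma-voom on library totals, where SNHG7 (0.24, adjusted p = 0.0501) and ZFAS1 (0.17, adjusted p = 0.0546) missed the threshold. Both of these settings moved the median of all genes and turned the log2 fold change negative for SNHG15 (-0.17), SNHG16 (-0.19) and GAS5 (-0.10) with JQ1, and for SNHG5 (-0.04), SNHG15 (-0.08) and SNHG16 (-0.06) with I-BET 762. On equal upper quartiles SNHG16 stood at -0.01 with JQ1. Leaving out each library gave 2 to 3 DEGs with JQ1 and 0 to 0 in the other comparisons, and 5 to 5, 4 to 5 and 3 to 5 hosts past the adjusted p, the fifth with I-BET 762 being GAS5 without JQ1 replicate 18 (adjusted p = 0.047). It changed the sign only of hosts near 0, which ran with JQ1 from -0.08 to 0.03 (SNHG8), -0.04 to 0.07 (SNHG15) and -0.04 to 0.04 (SNHG16), with I-BET 762 from -0.07 to 0.03, -0.01 to 0.03 and -0.01 to 0.08, and between the inhibitors from -0.07 to 0.04 (SNHG8) and -0.06 to 0.05 (SNHG15). GAS5 with I-BET 762 also passed with only the groups compared (-0.09, adjusted p = 0.0319), and GAS5 between the inhibitors did not pass without the trend (0.17, adjusted p = 0.0554). Over all hosts, comparisons and settings 482 values kept their direction and their side of the adjusted p, 18 fell back across it, 8 newly passed and 32 changed sign. Depth did not limit the hosts, with at least 492 normalized counts in every library, but 3 or 4 libraries per group leave intervals of about 0.1 to 0.2 on either side on the log2 scale.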

Other observations

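Of snoRNA symbols (SNORD or SNORA), 154 had a value, the 4 hosted ones included, and 84 of them were tested. With JQ1 21 rose and 4 fell, of which 13 and 2 were DEGs, with a median log2 fold change of 0.19. Of all genes tested 36.0% were higher, 35.6% lower and 13.3% DEGs on the higher side. With I-BET 762 15 rose and 4 fell, of which 11 and 3 were DEGs, with a median of 0.18, beside 29.9% higher, 31.3% lower and 8.96% DEGs on the higher side over all genes. Between the inhibitors 5 were higher and 1 was lower with JQ1, beside 13.3% of all genes higher and 14.0% lower. Of the genes tested as a whole, the median was 0.01 with JQ1 and 0.00 with I-BET 762. On equal totals that median was -0.18 with JQ1 and -0.10 with I-BET 762, and the snoRNA symbols were not counted under that scaling. How far reads of unspliced host RNA enter these snoRNA values was not tested either.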
